A study of Bos taurus with 6 samples.

Results

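The miR-106b-25 and miR-106a-363 clusters are paralogs of the miR-17-92 cluster, and their mature products were followed here in bovine granulosa cells under heat stress (HS). The members were taken by name: bta-miR-106b, bta-miR-93 and bta-miR-25 of the first cluster, bta-miR-106a, bta-miR-18b, bta-miR-20b and bta-miR-363 of the second, and bta-miR-92b, which has a locus of its own. They make up 8 of the 1028 miRNAs listed in each library, and no other hairpin arm of a member was listed. Granulosa cells are the somatic cells that surround the oocyte. They had been aspirated from small growing antral follicles of 3 to 6 mm of slaughterhouse ovaries and cultured for 24 h in medium with exosome-depleted serum. They then spent a further 24 h at 37 °C (control) or at 42 °C (HS), with 3 libraries per group numbered 1 to 3. No breed, animal age or pool size is given for either group in the sources used here. The study calls the libraries of a group biological triplicates, without saying whether they came from separate animals or cultures, so the p-values measure only the spread between these libraries.

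A microRNA (miRNA) is a short RNA that guides an Argonaute protein to messenger RNAs, mainly through its seed, the bases next to its 5′ end, and lowers their translation and stability. miR-106b, miR-93, miR-106a and miR-20b carry the seed of miR-17, miR-25, miR-363 and miR-92b carry the seed of miR-92, and miR-18b carries the seed of miR-18. miR-106b, miR-93 and miR-25 are processed from an intron of MCM7, which encodes a subunit of the replicative DNA helicase and is switched on by E2F factors when cells enter the cycle. Known targets of the family include the cell cycle inhibitor CDKN1A and the pro-apoptotic BCL2L11, and the miR-17-92 cluster is known in the ovary for promoting the proliferation of granulosa cells.

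All 8 members matched a RefSeq gene of the ARS-UCD2.0 assembly. The genes of miR-106b, miR-93 and miR-25 lie inside MCM7, between AP4M1 and COPS6. The genes of miR-106a, miR-18b, miR-20b and miR-363 overlap no other gene and sit together on the X chromosome, and they share that locus with MIR19B-2 and MIR92A-2. MIR92B overlaps no other gene and has no miRNA gene within 10 kb, with THBS3 and MUC1 as the nearest protein-coding genes. The mature bta-miR-19b and bta-miR-92a have a gene in the X-linked cluster and in the miR-17-92 cluster, so their reads cannot be assigned to a locus and they were not counted as members.

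Across the 6 libraries 2076239 to 4590971 reads could be recovered from the deposited values. Control replicate 1 was the shallowest library and had the largest median deviation from its group mean, 0.23 log2 units against 0.12 to 0.22 in the other libraries. Among markers of cell types, the gonadal somatic miRNAs bta-miR-202 and bta-miR-383 together measured 1356 to 2760 normalised CPM in the control libraries and 1319 to 2101 in the HS libraries. Nearly all of this was bta-miR-202, since bta-miR-383 alone had 5.53 to 11.1 over the 6 libraries. The log2 fold changes of bta-miR-202 and bta-miR-383 were -0.30 and -0.40 (limma adjusted p = 0.814 and 0.57), and their part in the results on the members was not tested. Of the 7 blood cell miRNAs, bta-miR-451, which defines red cells, had 2 to 8 reads and bta-miR-144 had 0 or 1. bta-miR-486 of the same list had more, 43 to 181 reads per library. The summed level of the 7 ranged from 730.2 to 895.4 normalised CPM in control and from 676.6 to 799.8 in HS cells, of which bta-miR-142-5p and bta-miR-223 made up most. The 5 miRNAs of the embryonic stem cell list had no read in any library. The summed level was 60.5 to 95.6 normalised CPM in control and 49.8 to 87.0 in HS cells for the 5 epithelial miRNAs, and 55.2 to 245.1 and 61.1 to 199.3 for the 3 muscle miRNAs. The liver miRNA bta-miR-122 had 17.3 to 71.8 and 20.4 to 72.

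The members were spread over a wide range of levels. The scale is TMM-normalised CPM, in which reads are divided by a library size that the trimmed mean of M-values (TMM) method adjusts. A mature miRNA gives a single read whatever its length, so levels of different miRNAs can be compared, although adapters are ligated to some sequences more readily than to others. Over the 6 libraries the order of the mean levels was bta-miR-93 (13470 ± 1431), bta-miR-25 (13048 ± 584), bta-miR-92b (332.1 ± 85.8), bta-miR-106b (69.0 ± 16.1), bta-miR-20b (3.84 ± 2.09), bta-miR-363 (3.71 ± 1.84), bta-miR-106a (3.41 ± 1.12) and bta-miR-18b (0.428 ± 0.134; SD, n = 6 each). bta-miR-93 and bta-miR-25 were the miRNAs of rank 16 and 17 among all those listed. Their order was not stable, since bta-miR-93 was the higher of the pair in 3 of 6 libraries. The step from bta-miR-25 to bta-miR-92b and those from bta-miR-92b to bta-miR-106b and from bta-miR-106b to bta-miR-20b were present in 6 of 6 libraries without overlap of their ranges. bta-miR-20b, bta-miR-363 and bta-miR-106a had overlapping ranges and did not hold a fixed order. bta-miR-18b lay under all of them in 6 of 6 libraries.

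**Figure D1:**
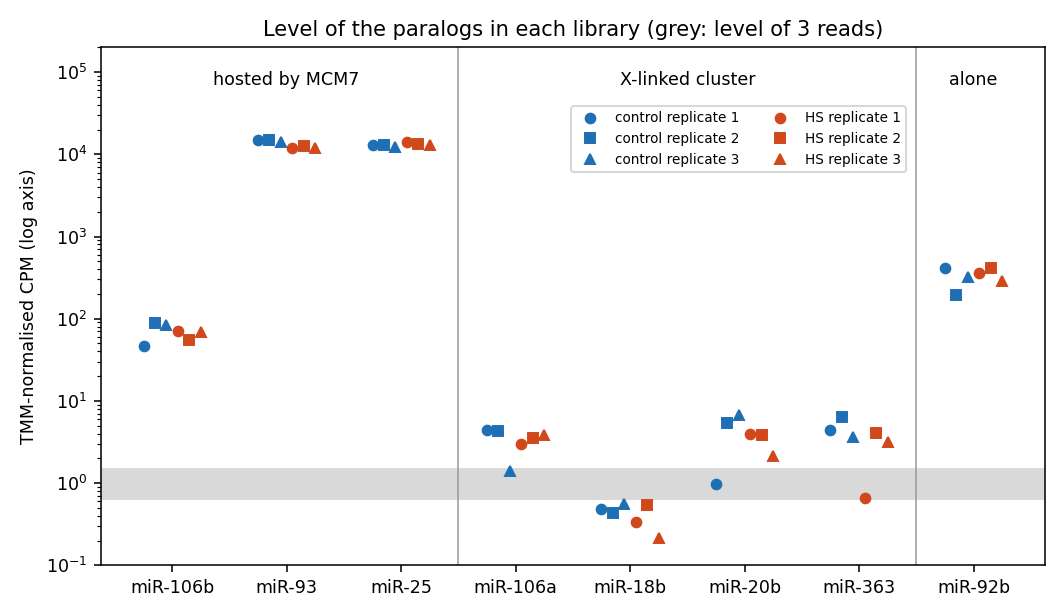
Level of each paralog in TMM-normalised CPM (log axis) in the 3 control libraries (blue) and the 3 HS libraries (orange), with the marker shape giving the replicate number and the grey band the level that 3 reads stand for in the 6 libraries. bta-miR-93 and bta-miR-25 lie between 11944 and 15127 in every library, while the X-linked members reach 6.69 at most, and bta-miR-18b is under the band throughout.

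To compare the MCM7-hosted cluster with the others, the levels were summed and the paralogs were set against each other in pairs. Of all miRNA reads, the 3 MCM7-hosted members together held 2.75% ± 0.103 in the control libraries and 2.56% ± 0.0486 in the HS libraries (SD, n = 3 each), nearly all of it from bta-miR-93 and bta-miR-25. The 4 X-linked members together had 21, 76 and 44 reads in control replicates 1, 2 and 3 and 24, 44 and 44 in the HS libraries, with normalised sums of 13.0 ± 3.2 and 9.76 ± 2.03 CPM (SD, n = 3 each). In each library the reads of the MCM7-hosted members outnumbered those of the X-linked members by 1710 to 3287 times. bta-miR-92b alone had 852 to 1536 reads per library.

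Pairing each MCM7-hosted miRNA with its paralog gave the same order in every library. The log2 level of bta-miR-106b exceeded that of bta-miR-106a, which has the same seed, by 4.0 ± 0.67 (SD, n = 6). bta-miR-93 exceeded bta-miR-20b by 11.57 ± 0.73, and bta-miR-25 exceeded bta-miR-363 by 11.56 ± 0.77. The excess of bta-miR-25 over bta-miR-92b was 5.34 ± 0.41. Each of these 4 differences on the log2(value + 1) scale had the same sign in 6 of 6 libraries (exact two-sided sign-flip test, p = 0.0312 for each, the smallest possible, and the same after Benjamini-Hochberg adjustment over 4 pairs). The test takes the 6 libraries as independent, and the labels do not say whether libraries of the same number share cells. With 3 independent values the smallest possible p of this test would be 0.25. The first 3 differences, in which the X-linked partner was low, moved more with the pseudocount than the fourth. How the authors assigned reads that fit more than 1 member of a family is not given in the sources used here. The low values of miR-106a, miR-20b and miR-18b are therefore uncertain beside their abundant relatives. The same holds for bta-miR-106b beside bta-miR-93, and for bta-miR-92b beside bta-miR-92a, which has the same seed. Over the 6 libraries bta-miR-92b averaged 332.1 normalised CPM and bta-miR-92a 18170. How far read assignment shaped the level of bta-miR-92b, and so its distance from bta-miR-25, was not tested.

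Levels were uneven within the MCM7-hosted cluster too, whose 3 miRNAs are cut from the same intron. The log2 ratio of bta-miR-106b was -7.62 ± 0.37 to bta-miR-93 and -7.58 ± 0.37 to bta-miR-25 (SD, n = 6; exact two-sided sign-flip test, p = 0.0312 for each, 0.0469 adjusted over the 3 pairs of this cluster). bta-miR-106b was the lower in each of the 6 libraries, which alone fixes this p at 0.0312, the smallest possible. The pairs within this cluster were not among the paralog pairs planned for the test, so their p-values are descriptive. For bta-miR-93 against bta-miR-25 the mean difference was 0.040 ± 0.194 (exact two-sided sign-flip test, p = 0.562), with a different sign in each group.

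In control cells bta-miR-93 was above bta-miR-25, and in HS cells it was below it. As the libraries are of bulk cells, a change in the share of cells that make a miRNA and a change in its amount per cell cannot be told apart. The control libraries held 1.16, 1.16 and 1.15 reads of bta-miR-93 per read of bta-miR-25 in replicates 1, 2 and 3. The HS libraries held 0.861, 0.954 and 0.927. The groups did not overlap, and the ratio was lower in HS cells by 0.34 on the log2 scale (0.21 ± 0.0099 in control, -0.13 ± 0.0758 in HS; SD, n = 3 each), which is a fall of 21.1%. The exact two-sided permutation test gave p = 0.1, the smallest possible with 3 against 3, or 0.3 adjusted over the 3 pairs of the cluster. The counting error of the log2 ratio was 0.0080 to 0.0121 in any library, since each value rests on 26336 to 69631 reads. The ratio within a library does not depend on the scaling between libraries. Leaving out each library in turn kept the difference between -0.37 and -0.30. This pair was chosen after its values were seen.

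Most of this difference lay in bta-miR-93, a miR-17 seed miRNA. Control replicates 1, 2 and 3 showed 14953, 15127 and 14066 normalised CPM of it, and the HS libraries 12080, 12650 and 11944. Every HS library was under every control library, with group means of 14715 ± 569 and 12225 ± 375 (SD, n = 3 each). Its log2 fold change of HS against control was -0.27 ± 0.0831 (SE), with a 95% interval of -0.46 to -0.07. The unadjusted limma p was 0.015 and the adjusted p was 0.203, just outside the study's limit of 0.2, and the size of the change was far from the 1 log2 unit that the study required. The adjusted p was 0.158 by the edgeR quasi-likelihood test and 0.251 by DESeq2, and under the alternatives tried it lay between 0.158 and 0.472, with the direction the same in each.

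bta-miR-25 is the miR-92 seed member of the cluster. Its control libraries showed 12858, 13017 and 12243 normalised CPM, and its HS libraries 14023, 13263 and 12885. The groups overlapped, with means of 12706 ± 409 and 13390 ± 579 (SD, n = 3 each). Its log2 fold change was 0.08 ± 0.0844 (SE, limma adjusted p = 0.825), and the 95% interval of -0.12 to 0.28 bounds any change to less than 1 log2 unit. The sign turned to -0.11 with upper quartile factors, a scaling that moved the median of all tested miRNAs to -0.18, and bta-miR-25 stayed above that median. Over the 6 libraries its level had an SD of 0.064 log2 units, and it was the miRNA of rank 3 from the steadiest among the 365 tested, whose median SD was 0.30. Within the control and the HS libraries its SD was 0.047 and 0.062, beside 0.056 and 0.044 for bta-miR-93.

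**Figure D2:**
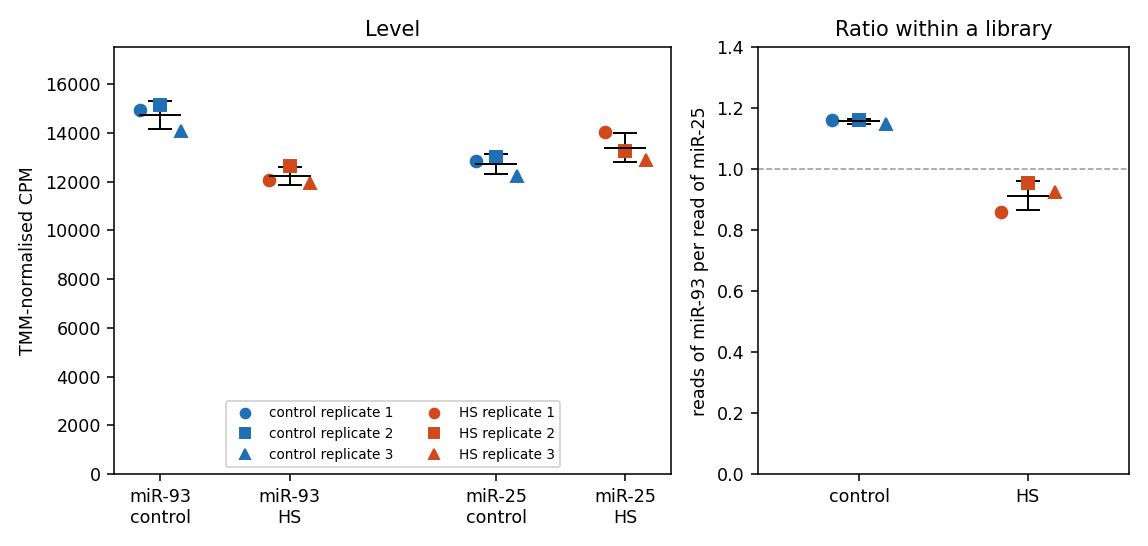
Left, TMM-normalised CPM of bta-miR-93 and bta-miR-25 in each library. Right, reads of bta-miR-93 per read of bta-miR-25 in the same library. Blue points are control and orange points HS libraries, black bars are the mean and SD of 3 libraries, and the dashed line marks equal reads. The ratio is 1.15 to 1.16 in control and 0.861 to 0.954 in HS cells.

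bta-miR-106b is the remaining product of the MCM7 intron. At 96 to 407 reads per library, its normalised CPM was 46.9, 88.4 and 84.1 at 37 °C and 70.3, 54.7 and 69.6 at 42 °C. The control values enclosed the HS values. The log2 fold change was -0.13 ± 0.277 (SE, limma adjusted p = 0.947, 95% interval -0.78 to 0.53). Control replicate 1 was the lowest library, and the log2 fold change became -0.41 when it was left out (limma adjusted p = 0.365). Without control replicate 2 or 3 the sign turned, to 0.036 and 0.0005.

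The X-linked members were near the limit of what these libraries can measure. A level of 3 reads stands for 0.639 to 1.465 normalised CPM, by library, and covers counting error only. bta-miR-106a, a miR-17 seed miRNA, was counted 9, 20 and 5 times in the control libraries and 9, 13 and 18 times in the HS libraries, or 4.39, 4.34 and 1.39 against 2.99, 3.54 and 3.83 normalised CPM. The groups overlapped, and the estimated log2 change of 0.11 ± 0.355 (SE, limma adjusted p = 0.959) had a 95% interval of -0.73 to 0.95. It was -0.28 without control replicate 3. With upper quartile factors it was -0.038, which still lay above the median of all tested miRNAs under that scaling, -0.18.

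bta-miR-20b, of the same seed, was counted 2, 25 and 24 times in the control libraries and 12, 14 and 10 times in the HS libraries. Control replicate 1 was the lowest library here as it was for bta-miR-106b, and the other control libraries were the highest. The log2 fold change was -0.13 ± 0.529 (SE, limma adjusted p = 0.959, 95% interval -1.38 to 1.13). It went to -0.74 without control replicate 1 and to 0.11, 0.24 and 0.087 without control replicate 2, control replicate 3 or HS replicate 3. With all libraries kept it was -0.56 in the edgeR quasi-likelihood test and -0.45 in DESeq2.

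bta-miR-363, the miR-92 seed member of the X-linked cluster, had the largest estimated change among the 7 members tested. Its counts were 9, 29 and 13 in the control libraries and 2, 15 and 15 in the HS libraries, or 4.39, 6.30 and 3.62 against 0.664, 4.08 and 3.19 normalised CPM. The groups overlapped, and HS replicate 1 stood apart as the lowest value. The log2 fold change was -0.79 ± 0.446 (SE, limma adjusted p = 0.482), and the 95% interval of -1.84 to 0.27 does not exclude a change of more than 1 log2 unit. Without HS replicate 1 it was -0.30 (limma adjusted p = 0.868) and without HS replicate 2 -1.10 (limma adjusted p = 0.484). With a pseudocount of 5 it was -0.37.

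bta-miR-18b, of the miR-18 seed, was counted 1, 2 and 2 times in the control libraries and 1, 2 and 1 times in the HS libraries. Each is at or under the floor of 3 reads, so a difference was not detectable at this depth, and the miRNA did not pass the filter on low reads.

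bta-miR-92b, the lone miR-92 seed paralog, measured 416, 192.7 and 326 normalised CPM at 37 °C and 356.7, 417.7 and 283.7 at 42 °C. The values overlapped, with control replicate 2 as the lowest library. The log2 fold change was 0.23 ± 0.302 (SE, limma adjusted p = 0.839, 95% interval -0.49 to 0.95). It was 0.47 without control replicate 1 and turned to -0.080 without control replicate 2.

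In all, 7 of the 8 members passed the filter on low reads and were tested. By the study's rule, which joins an adjusted p limit of 0.2 to a minimum change of 1 log2 unit, limma called none of them, against 3.01% of the 365 miRNAs tested. With the p limit alone it called none, against 7.12%, and with an adjusted p under 0.05 none, against 2.19%. The edgeR quasi-likelihood test called 0 by the study's rule (2.74% of all tested), 0 under 0.05 (1.92%) and 1 member, bta-miR-93, by the limit of 0.2 alone (6.85%). DESeq2 called 0 by the study's rule (2.74%), 0 by the limit of 0.2 alone (7.12%) and 0 under 0.05 (5.48%). At an unadjusted limma p under 0.05 there was 1 member, bta-miR-93, against 14.5% of all miRNAs tested. It was also the 1 member whose groups did not overlap. Of the tested miRNAs, 10.4% were lower in every HS library than in any control library, and 20% did not overlap in either direction. The median log2 fold change of the 7 members was -0.13, with 3 higher and 4 lower in HS cells, and that of all tested miRNAs was -0.0015.

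**Figure D3:**
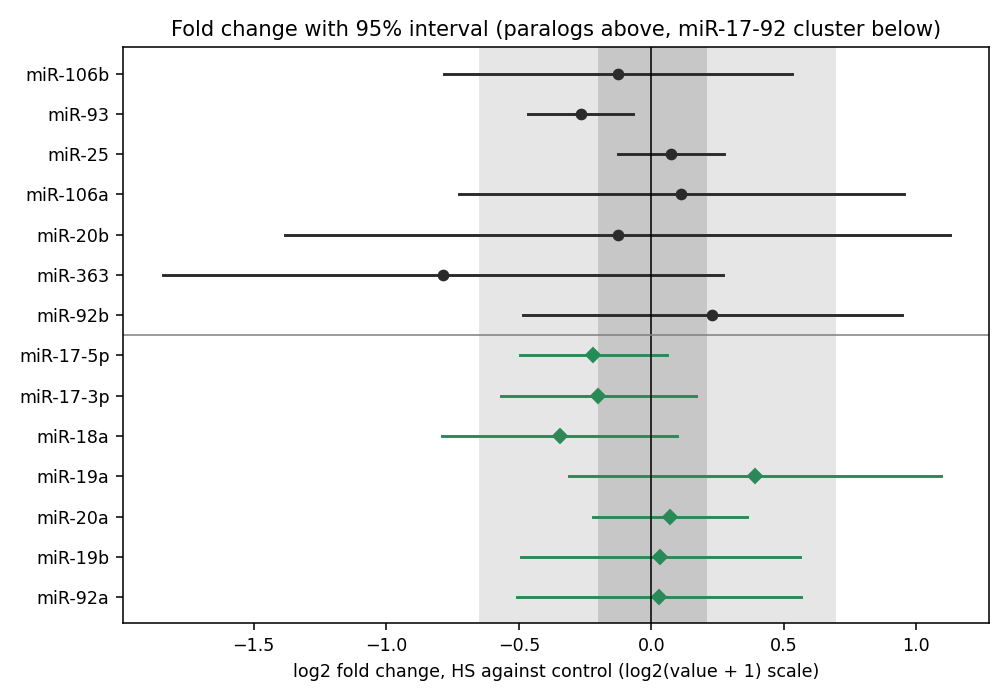
Log2 fold change of HS against control with its 95% limma interval for the 7 tested paralogs (black circles) and the 7 miRNAs of the miR-17-92 cluster (green diamonds). Dark grey spans the central 50% and light grey the central 90% of the 365 tested miRNAs. The interval of bta-miR-93 lies wholly under 0, and the intervals of the X-linked members are several times wider than those of bta-miR-93 and bta-miR-25.

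Whether HS moved the balance between a MCM7-hosted miRNA and its paralog was tested on the log2 ratio of each pair in each library. From control to HS the ratio of bta-miR-106b to bta-miR-106a went from 4.12 ± 1.0 to 3.88 ± 0.27, and that of bta-miR-93 to bta-miR-20b from 11.64 ± 1.09 to 11.50 ± 0.35 (SD, n = 3 each). The ratio of bta-miR-25 to bta-miR-363 went from 11.13 ± 0.30 to 11.99 ± 0.92, and that of bta-miR-25 to bta-miR-92b from 5.41 ± 0.59 to 5.26 ± 0.26. The groups overlapped for all 4 pairs, and the exact two-sided permutation test gave p = 0.8, 1, 0.2 and 0.9 in this order (adjusted over 4 pairs 1, 1, 0.8 and 1), where 0.1 is the smallest possible. For the pairs other than bta-miR-25 to bta-miR-363, the difference was smaller than the SD of either group. That of bta-miR-25 to bta-miR-363, 0.86, was above the SD of the control libraries (0.30) and under that of the HS libraries (0.92). It was 0.34 without HS replicate 1.

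**Figure D4:**
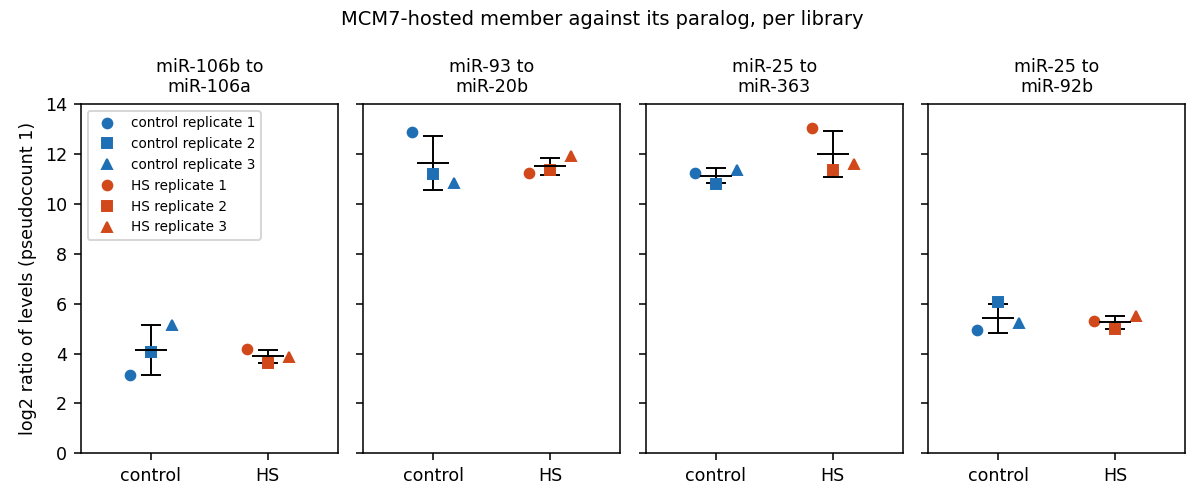
Log2 ratio of an MCM7-hosted miRNA to its paralog (pseudocount of 1) in each control (blue) and HS (orange) library, with marker shape for the replicate number and black bars for the mean and SD of 3 libraries. The groups overlap in the 4 pairs, and the ratios lie above 0 in every library.

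The miR-17-92 cluster was read for comparison. Its 7 listed products, of which bta-miR-19b and bta-miR-92a can also come from the X-linked cluster, were all tested, 4 were higher and 3 lower in HS cells, and their adjusted limma p-values ranged from 0.452 to 0.969, with a median log2 fold change of 0.03. bta-miR-17-5p, which has the seed of bta-miR-93, measured 635.7, 676.9 and 636.9 normalised CPM at 37 °C and 571, 569.2 and 534.5 at 42 °C. Its groups did not overlap, as for bta-miR-93, and the log2 fold change was -0.22 ± 0.117 (SE; limma adjusted p = 0.452, unadjusted p = 0.104). For bta-miR-20a, of the same seed, it was 0.07 ± 0.123 (SE, limma adjusted p = 0.907), so the estimates for this seed differed in sign. bta-miR-92a, of the miR-92 seed, was the most abundant of the 7, both loci together, with 18218 ± 5485 normalised CPM at 37 °C and 18122 ± 2421 at 42 °C (SD, n = 3 each; log2 fold change 0.03, limma adjusted p = 0.969). The intervals of these differences overlap that of bta-miR-93, and the difference between them was not tested.

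The miRNAs most like each member across the libraries were found from the SD of the log2 ratio over the 6 libraries, a description in which libraries share their scaling and a steady miRNA lies close to every other steady one. For bta-miR-93 these were bta-miR-17-5p (SD 0.049) and bta-miR-708 (0.077), against a median of 0.35 over the 364 others. bta-miR-25 was closest to bta-miR-151-3p (0.060) and bta-miR-6525 (0.064), and bta-miR-106b to bta-miR-148a (0.067) and bta-miR-362-3p (0.092). The cluster mates were not among the nearest: bta-miR-25 took place 61 of 364 from bta-miR-93. From bta-miR-106b, bta-miR-25 took place 111 and bta-miR-93 place 119. For bta-miR-92b the closest were bta-miR-125b (0.139) and bta-miR-125a (0.143). The X-linked members had no close neighbour, with the smallest SD at 0.29 for bta-miR-106a (bta-miR-30f), 0.36 for bta-miR-20b (bta-miR-200a) and 0.36 for bta-miR-363 (bta-miR-139), followed by bta-miR-2409 (0.32), bta-miR-2336 (0.40) and bta-miR-147 (0.37). At 2 to 29 reads per library, counting error alone is a large part of such values.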

How the data were processed

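Upstream, as the study's methods and the submitters' processing notes have it, the authors used Cutadapt 1.11 for adapters, merged reads with identical molecular identifiers, and aligned with Bowtie2 2.2.2 to the bovine genome (UMD3.1). They counted reads against miRBase miRNAs and applied TMM scaling in edgeR. The deposited signal is TMM-normalised CPM, 1 value per miRNA and library. All values (100%) were whole multiples of 1 step per library (tolerance 0.01 of a read), which gave back the reads.

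HS was compared with control by limma 3.58.1 under R 4.3.3, with a mean-variance trend, on log2(value + 1), after filterByExpr of edgeR 4.0.16 (minimum count 10) on the recovered reads. P-values were Benjamini-Hochberg adjusted over the 365 miRNAs tested. The study's own analysis used edgeR. Fold changes on this scale understate changes of low miRNAs. Ratios were tested by exact permutation in Python 3.11.15 with scipy 1.17.1. Alternatives covered pseudocounts, filter, scaling, edgeR, DESeq2 1.42.0, the replicate block and each library left out. Chi-square values between replicates of a group were 84.3 to 431.3 per degree of freedom, so none was the same library listed again.

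The members and lists were chosen with earlier results of these data known. Named were the members, the miR-17-92 products, the 2 tested miRNAs most like each member, and cell type markers. Mature sequences were not used here, so seeds are given from general knowledge. RefSeq positions belong to another assembly and are not given.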

Additional observations from a re-analysis of the deposited data

How the results depend on the processing

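A tested member's log2 fold change was set against an alternative 119 times. In 107 the direction and the side of the adjusted p limit of 0.2 were kept, in 3 the limit was newly passed and in 9 the sign changed. Those newly past it were all of bta-miR-93: -0.45 with upper quartile factors (adjusted p = 0.197), -0.29 with the edgeR quasi-likelihood test (0.158) and -0.29 with that test and the replicate block (0.193), the last chosen after the data were seen. Upper quartile factors moved the median of all tested miRNAs to -0.18, which bears on that value of bta-miR-93 and on the 2 sign changes they gave, of bta-miR-25 to -0.11 and of bta-miR-106a to -0.038. With a library left out the ranges were -0.41 to 0.036 for bta-miR-106b, -0.28 to 0.31 for bta-miR-106a, -0.74 to 0.24 for bta-miR-20b, -1.10 to -0.30 for bta-miR-363 and -0.080 to 0.47 for bta-miR-92b. No member passed either call rule under any of the 17 alternatives.

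The difference between HS and control in the log2 ratio ranged, with a library left out, from -0.73 to 0.28 for bta-miR-106b to bta-miR-106a, from -0.54 to 0.48 for bta-miR-93 to bta-miR-20b, from -0.39 to 0.17 for bta-miR-25 to bta-miR-92b and from 0.34 to 1.18 for bta-miR-25 to bta-miR-363. Other pseudocounts changed no direction, but with a pseudocount of 5 the last was 0.45 (exact permutation test, p = 0.1, the smallest possible) against 0.86 (p = 0.2). The sign turned for the first without control replicate 3, for the second without control replicate 1 and for the third without control replicate 2, in each case by the loss of 1 of 3 values, and the cause was not tested.

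The level differences within pairs kept their sign throughout. With 5 libraries the test cannot go under 0.0625 and with 3 not under 0.25, so the threshold was missed there by construction. With control and with HS libraries only they were 4.12 and 3.88 for bta-miR-106b over bta-miR-106a, 11.64 and 11.50 for bta-miR-93 over bta-miR-20b, 11.13 and 11.99 for bta-miR-25 over bta-miR-363, and 5.41 and 5.26 for bta-miR-25 over bta-miR-92b. With a library left out they ran from 3.77 to 4.17, 11.31 to 11.72, 11.27 to 11.71 and 5.19 to 5.42. With a pseudocount of 5 the first 3 shrank to 3.12, 10.60 and 10.58.

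The deviations of libraries from their group means, taken over miRNAs, had correlations of 0.42, -0.12 and 0.62 between the libraries numbered 1, 2 and 3, so a shared number was not taken as a pairing, and the labels do not say what a number marks. With the replicate block in limma, bta-miR-93 had an adjusted p of 0.203, and no member was called. Within number the log2 ratio of bta-miR-93 to bta-miR-25 differed by -0.43, -0.28 and -0.31, and that of bta-miR-25 to bta-miR-363 by 1.82, 0.55 and 0.21 (exact two-sided sign-flip test, p = 0.25 for each, the smallest possible).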
